A study of Mus musculus with 30 samples.

Results

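The 10 genes described here encode the enzymes that make and break down the polyamines and the proteins that control the first of these steps: Amd1, Amd2, Odc1, Srm, Sms, Sat1, Smox, Paox, Azin1 and Oaz1. They were taken by gene symbol from a table of 36103 genes, and all 10 were found in it. The set was chosen by the level of Amd1, which was 9.27 times lower in the gastrocnemius of mice lacking Mtm1, and the other members by their place in the pathway, so the values of Amd1 in that muscle are given as a description without a test. RNA was sequenced from 4 tissues of male mice aged 5 weeks on a pure 129Pas background: Mtm1-/y mice, in which the X-linked gene for the phosphoinositide phosphatase myotubularin is knocked out, and their WT littermates. The gastrocnemius, a limb muscle, and the heart each gave 4 WT and 4 Mtm1-/y libraries, the diaphragm, the main breathing muscle, gave 4 and 3, and the liver gave 3 and 4. The study set these tissues side by side to ask in which organs the loss of myotubularin alters gene expression. Its methods count mice as replicates, but the labels do not say which libraries of different tissues came from 1 animal.

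Putrescine, spermidine and spermine are small, positively charged molecules that bind RNA, DNA and ion channels and are needed for growth and translation. Ornithine decarboxylase makes putrescine from ornithine, and S-adenosylmethionine decarboxylase supplies the aminopropyl groups that spermidine synthase and spermine synthase add to it. The acetyltransferase Sat1 followed by the oxidase Paox, or the spermine oxidase Smox alone, turns the chain back, and antizyme and its inhibitor set how fast ornithine decarboxylase is degraded. In skeletal muscle, Amd1, Odc1 and Smox are known as genes that respond to androgens, anabolic state and disuse.

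The S-adenosylmethionine decarboxylase of the mouse is listed under 2 symbols. In GRCm38 (mm10), Amd1 lies at chr10:40287458-40302186 on the minus strand with a coding sequence spread over 8 exons, and Amd2 lies at chr10:35708675-35711892 on the same strand with its coding sequence in 1 exon. Both coding sequences have 1002 bases in the GENCODE M21 transcripts, and they differ at 1 base, G796C, written as the base of Amd1, its position from 1 at the start codon, and the base of Amd2. The stretch from coding position 772 to 821 is shown because it holds this base, in capitals, at chr10:40290161-40290210 in Amd1 and chr10:35710739-35710788 in Amd2.
Amd1: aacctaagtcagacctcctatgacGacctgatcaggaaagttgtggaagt
Amd2: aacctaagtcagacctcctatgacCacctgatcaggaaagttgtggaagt
Of the 3155 words of 50 bases in the spliced Amd1 transcript, 2715 (86.1%) also occur in Amd2. Reads were 50 bases long before trimming and the authors counted reads aligned at a single place only. A read from such a word that fits both places equally well would be left out of both genes. The counts of Amd1 and Amd2 may therefore rest mostly on the remaining part of each transcript. How reads across exon junctions of Amd1 were aligned was not examined.

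Outside their transcripts the copies are unlike each other. The windows of 250 bases upstream of the RefSeq starts (GRCm38.p6) share no stretch longer than 7 bases, and they are shown with that of Smox because Amd1, Amd2 and Smox are the 3 members with the largest differences in the gastrocnemius. They lie at chr10:40302189-40302438 (minus strand) for Amd1, chr10:35711892-35712141 (minus strand) for Amd2 and chr2:131491612-131491861 (plus strand) for Smox, and capitals mark the GC box GGGCGG on either strand.
Amd1: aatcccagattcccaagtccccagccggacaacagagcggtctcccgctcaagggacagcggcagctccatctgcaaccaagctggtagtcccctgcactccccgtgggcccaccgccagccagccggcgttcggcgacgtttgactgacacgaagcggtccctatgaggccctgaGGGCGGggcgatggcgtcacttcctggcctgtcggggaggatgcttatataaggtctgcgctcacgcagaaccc
Amd2: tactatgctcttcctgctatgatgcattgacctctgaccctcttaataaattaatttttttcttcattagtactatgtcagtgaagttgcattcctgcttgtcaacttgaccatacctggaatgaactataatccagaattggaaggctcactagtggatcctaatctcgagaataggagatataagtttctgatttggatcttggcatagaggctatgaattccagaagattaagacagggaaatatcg
Smox: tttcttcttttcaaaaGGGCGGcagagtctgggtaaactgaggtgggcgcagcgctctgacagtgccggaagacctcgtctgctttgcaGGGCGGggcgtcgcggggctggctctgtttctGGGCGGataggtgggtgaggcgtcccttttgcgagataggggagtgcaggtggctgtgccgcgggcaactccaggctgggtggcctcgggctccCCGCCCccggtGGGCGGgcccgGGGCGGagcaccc
The G+C content was 64.4% for Amd1, 37.6% for Amd2 and 68.0% for Smox, against a median of 52.4% over all 32851 RefSeq windows of this length. The GC box was found 6 times in the Smox window, 1 time in that of Amd1 and not in that of Amd2, and 32.7% of all windows hold at least 1. The GENCODE model of Smox begins at 131491496, before this window, so the window belongs to the RefSeq start only. None of these 3 windows held the letters CACGTG (6.02% of all windows), CAGCTG (13.0%), TATAAA (12.4%) or TGACGTCA (1.55%), each looked for on both strands.

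The libraries held between 24873817 and 44289343 counts. Genotypes did not overlap for Mtm1 itself in any tissue. Its mean CPM (the count scaled to a common library size) in WT and Mtm1-/y was 21.2 and 5.02 for gastrocnemius, 19.3 and 3.98 for diaphragm, 23.0 and 3.85 for heart, and 19.6 and 6.52 for liver, where the test did not call it (log2 fold change -1.60, edgeR adjusted p = 0.365). DESeq2 did call Mtm1 in the liver (log2 fold change -1.59, DESeq2 adjusted p = 1.23e-06). All CPM values were scaled by TMM (trimmed mean of M values) over the 30 libraries. Summed CPM of 8 hepatocyte markers was 19.1 to 118 in the gastrocnemius and 7.55 to 143 in the heart but 428 to 42609 in the diaphragm, against 169211 to 219090 in the liver. Outside the gastrocnemius Amd2 had 12 counts or fewer in every library, which limits what can be said of it there. In whole-tissue RNA, fewer cells of a type and less RNA per cell cannot be told apart.

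In WT mice, the polyamine genes divided between the limb muscle and the liver. Smox and Sms, the genes at the spermine end of the pathway, together with Odc1 and Amd1, had their highest level in the gastrocnemius, whereas Srm, Sat1 and Paox had theirs in the liver. Differences between WT tissues were tested with edgeR's quasi-likelihood test in 1 fit of the 15 WT libraries, with Benjamini-Hochberg adjustment over all genes, and pairs that involve the gastrocnemius were not tested for Amd1.

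**Figure D1:**
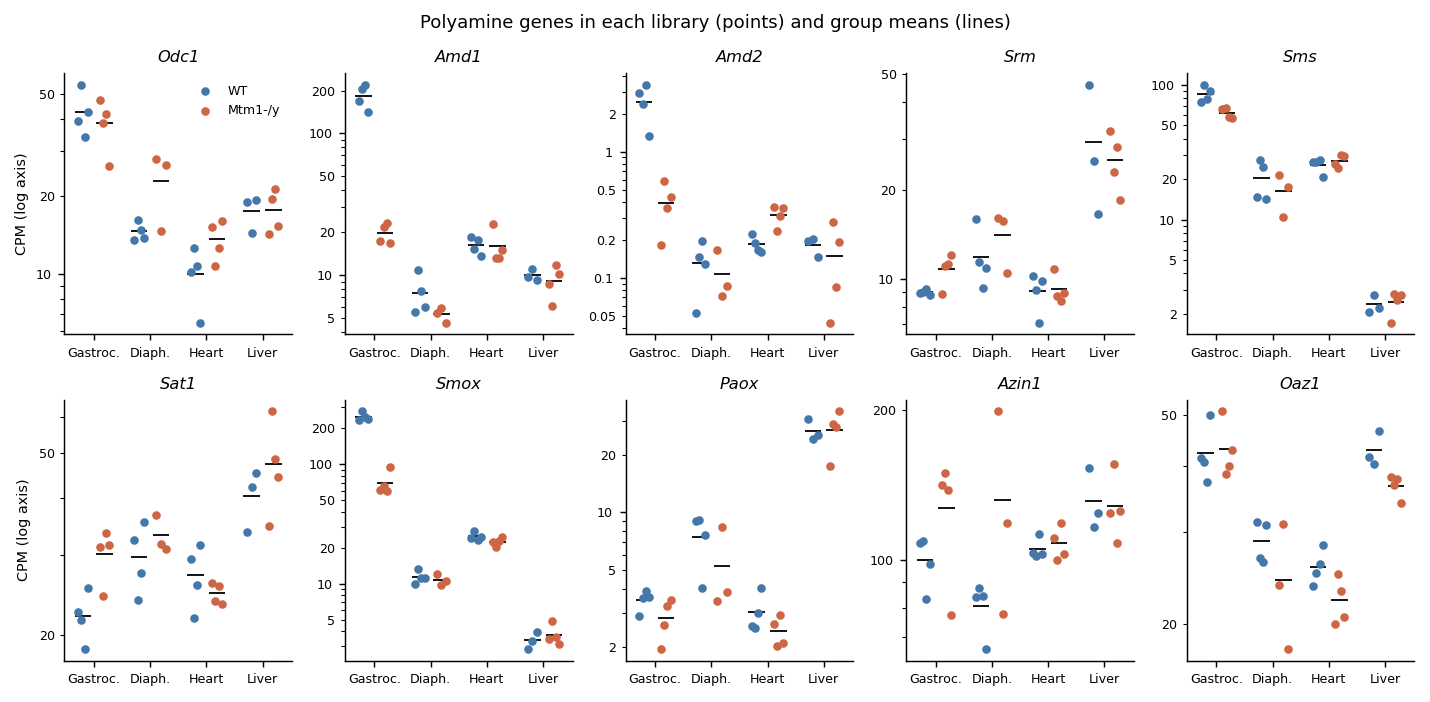
CPM of the 10 polyamine genes on a log axis in each of the 30 libraries, with WT in blue, Mtm1-/y in red and group means as lines. Amd1 and Smox are lower in Mtm1-/y than in WT gastrocnemius without overlap (142 to 219 against 16.8 to 23.2 CPM for Amd1, 235 to 276 against 59.4 to 94.1 for Smox) and overlap between genotypes in the other tissues.

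Odc1, the first enzyme of synthesis, averaged 42.3 ± 8.48 CPM (SD, n = 4) in WT gastrocnemius, 17.6 ± 2.80 (n = 3) in liver, 14.6 ± 1.18 (n = 4) in diaphragm and 10.0 ± 2.58 (n = 4) in heart. The gastrocnemius level was 2.41 times that of the liver (edgeR adjusted p = 2.54e-05), the liver and the diaphragm did not differ beyond their spread (edgeR adjusted p = 0.305), and the heart was below the diaphragm (edgeR adjusted p = 0.0209). Amd1 averaged 183 ± 35 CPM in WT gastrocnemius, 16.3 ± 2.24 in heart, 10.0 ± 0.864 in liver and 7.51 ± 2.39 in diaphragm. The gastrocnemius was thus 11.2 times the next tissue, and among the others the heart was above the liver (edgeR adjusted p = 0.00573) while liver and diaphragm were not separated (edgeR adjusted p = 0.122). Amd2 had 38 to 104 counts per WT gastrocnemius library and 2 to 7 counts in any other WT library, and 85.7% of its 50-base words also occur elsewhere, all of these in Amd1. Of all counts given to the 2 genes together, Amd2 took 0.930 to 1.70% in WT gastrocnemius and 0.936 to 2.46% over the other WT tissues, so its order over tissues ran alongside that of Amd1.

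Srm, spermidine synthase, was highest in WT liver, where the 3 libraries had 45.6, 25.2 and 16.6 CPM, against 11.9 ± 2.88 (n = 4) in diaphragm, 9.06 ± 1.39 in heart and 8.99 ± 0.166 in gastrocnemius. The liver was above the diaphragm (edgeR adjusted p = 0.00074), and the last 3 tissues did not differ beyond their spread in any pair (edgeR adjusted p between 0.201 and 0.942). Sms, spermine synthase, ran the other way, with 85.7 ± 11.5 CPM in WT gastrocnemius, 25.6 ± 3.28 in heart, 20.3 ± 6.83 in diaphragm and 2.36 ± 0.372 in liver. Its gastrocnemius level was above that of the heart (edgeR adjusted p = 3.11e-06) and 36.2 times its liver level, and heart and diaphragm were not separated (edgeR adjusted p = 0.171). The organ highest in spermidine synthase was thus the one lowest in spermine synthase.

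Smox, which oxidises spermine directly back to spermidine, showed the steepest order of the breakdown genes. It averaged 249 ± 18.8 CPM in WT gastrocnemius, 24.9 ± 2.06 in heart, 11.4 ± 1.42 in diaphragm and 3.38 ± 0.532 in liver, and each step down was past the threshold (edgeR adjusted p = 3.76e-11, 1.89e-06 and 2.49e-08). The limb muscle was 10.0 times the heart and 73.7 times the liver. Paox, which oxidises the acetylated polyamines that Sat1 produces, averaged 26.6 ± 3.47 CPM in liver, 7.46 ± 2.40 in diaphragm, 3.51 ± 0.425 in gastrocnemius and 3.02 ± 0.715 in heart, where liver and diaphragm (edgeR adjusted p = 1.45e-05) and diaphragm and gastrocnemius (0.00169) differed and the last pair was not separated (edgeR adjusted p = 0.385). The diaphragm libraries carried liver RNA to unequal extents: Paox was 7.62 to 9.13 CPM in the 3 WT libraries with 15531 to 22780 CPM of Alb, the serum albumin of hepatocytes, and 4.02 in the 1 with 252 CPM, near the gastrocnemius level. The part of liver RNA in the diaphragm level of Paox was not tested. Sat1 spanned less, from 40.4 ± 6.01 CPM in liver to 22.1 ± 2.76 in gastrocnemius, with the diaphragm at 29.7 ± 5.07 and the heart at 27.2 ± 4.28. Of the neighbours in that order, liver and diaphragm differed (edgeR adjusted p = 0.0379), while diaphragm and heart (0.475) and heart and gastrocnemius (0.145) did not pass. Within 1 library of WT gastrocnemius there were 63.9 to 81.1 Smox counts for each Paox count, and in WT liver 0.0937 to 0.156.

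The regulators were flatter. Azin1, the antizyme inhibitor, averaged 131 ± 19.4 CPM in liver, 105 ± 5.23 in heart, 99.6 ± 12.0 in gastrocnemius and 80.5 ± 9.76 in diaphragm, and only the gastrocnemius and the diaphragm differed among neighbours in this order (edgeR adjusted p = 0.0258). Oaz1, antizyme, averaged 42.9 ± 3.4 CPM in liver and 42.3 ± 5.37 in gastrocnemius, which were not separated (edgeR adjusted p = 0.637), and 28.8 ± 2.69 in diaphragm and 25.7 ± 1.95 in heart, which were not separated either (edgeR adjusted p = 0.183). On a per-length scale (RPKM, CPM divided by exon length in kilobases) the order of genes in WT gastrocnemius was Smox at 64.0, Amd1 at 51.8, Oaz1 at 16.5, Azin1 at 15.9, Sms at 14.3, Odc1 at 12.4, Sat1 at 7.95 and Srm at 5.62, with Amd2 and Paox below 1. In WT liver the RPKM of Azin1 was 21.0, that of Srm 18.2 and that of Sat1 14.6, while Smox stood at 0.868 and Sms at 0.393. The RPKM of Amd1 divides by its whole exon length although much of that length is shared with Amd2. Smaller shares of the 50-base words of Paox (28.5%), Odc1 (24.3%) and Oaz1 (21.0%) occur in other genes, an antisense gene overlaps Azin1 and Echs1 overlaps Paox on the opposite strand, so reads of these genes may be split or left out.

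Counts of members that differed between WT tissues are set beside the share of all genes that did. Between WT gastrocnemius and WT diaphragm 8 of 9 members tested differed (54.4% of all genes), between gastrocnemius and heart 5 of 9 (61.3%), and between gastrocnemius and liver 8 of 9 (79.5%). Amd2 is among the members that differed in each of these pairs. It is not independent of Amd1, which was left out, and it had few counts in the other WT tissues. Between diaphragm and heart 5 of 10 members differed (51.7% of all genes), between diaphragm and liver 7 of 10 (76.1%), and between heart and liver 8 of 10 (76.4%).

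In the gastrocnemius of Mtm1-/y mice, Smox and Amd1, the members with the highest level per length in the WT muscle, were both lower in every library, and spermine synthase was lower to a smaller extent. Amd1 had 168, 205, 219 and 142 CPM in WT replicates 1 to 4 and 17.3, 21.8, 23.2 and 16.8 CPM in Mtm1-/y replicates 1 to 4. The groups did not overlap, the WT mean was 9.27 times the Mtm1-/y mean, and the log2 fold change was -3.20 (SE 0.17), with 11 of 15456 genes lower. At 19.8 ± 3.24 CPM (SD, n = 4), the Mtm1-/y muscle lay near the WT heart and above the WT diaphragm. Amd2 had 2.90, 2.40, 3.37 and 1.33 CPM in WT and 0.182, 0.591, 0.360 and 0.436 CPM in Mtm1-/y libraries, which are 7 to 18 counts per library, and it took 1.04 to 2.64% of the counts of both genes there. Because of its near-identity to Amd1, its log2 fold change of -2.67 (SE 0.39) is not independent of the value that chose the set, and whether its counts came from Amd1 transcripts was not tested.

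Of the 9 members other than Amd1, 1 rose and 3 fell by edgeR at an adjusted p under 0.05. Over all genes tested, 14.1% rose and 14.9% fell, 29.0% in all. The 3 that fell were Smox, Sms and Amd2, each without overlap between the groups, as in 16.7% of all genes. Amd2 is not independent of Amd1, and it passed the filter on low counts through its WT libraries. DESeq2 called the same 4 members (25.7% of all genes). The median log2 fold change of the 9 was -0.12, against 0.02 over all genes.

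Smox had 235, 276, 249 and 236 CPM in WT replicates 1 to 4 and 60.6, 66.0, 59.4 and 94.1 CPM in Mtm1-/y replicates 1 to 4. The groups did not overlap, and the WT mean was 3.56 times the Mtm1-/y mean. The log2 fold change was -1.82 (SE 0.14, edgeR adjusted p = 8.2e-05), and 76 of 15456 genes were lower. Even so, Smox at 70.0 ± 16.3 CPM in the Mtm1-/y muscle stayed above its level in every other tissue. No 50-base word of the Smox transcripts occurs in another gene.

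Sms had 74.6, 99.6, 78.1 and 90.4 CPM in WT and 65.8, 67.7, 57.6 and 56.8 CPM in Mtm1-/y gastrocnemius. The log2 fold change was -0.45 (SE 0.10, edgeR adjusted p = 0.00839), and the call was lost when all 30 libraries shared 1 fit (adjusted p = 0.113) or when libraries were scaled by their totals (adjusted p = 0.282), within a range of 0.000786 to 0.282 over the alternatives. Sms shares 17.5% of its 50-base words with other genes, mostly the pseudogene Sms-ps. Sat1, the acetyltransferase, went up, with 22.5, 21.6, 18.7 and 25.4 CPM in WT and 31.2, 24.4, 33.5 and 31.5 CPM in Mtm1-/y libraries. Its groups overlapped at 1 Mtm1-/y library, and the log2 fold change was 0.47 (SE 0.12, edgeR adjusted p = 0.0149). Within a library, the number of Sat1 counts per Smox count was 0.0751 to 0.107 in WT and 0.335 to 0.564 in Mtm1-/y gastrocnemius.

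The other members of both arms did not pass. In this muscle Odc1 had 39.2, 53.9, 33.9 and 42.3 CPM in WT and 47.3, 38.6, 41.9 and 26.3 CPM in Mtm1-/y libraries, a log2 fold change of -0.12 (SE 0.18, edgeR adjusted p = 0.649). Its libraries overlapped widely, unlike those of Amd1. Srm had 8.92, 9.0, 9.21 and 8.82 CPM in WT and 8.83, 11.1, 11.2 and 12.0 CPM in Mtm1-/y libraries, a log2 fold change of 0.27 (SE 0.11, edgeR adjusted p = 0.0765). Only Mtm1-/y replicate 1 lay within the WT range, and without it the value was 0.36 with an adjusted p of 0.0175 (range over alternatives 0.00193 to 0.477). Paox had 2.90, 3.6, 3.89 and 3.64 CPM in WT and 1.95, 2.59, 3.24 and 3.52 CPM in Mtm1-/y libraries, a log2 fold change of -0.30 (SE 0.20, edgeR adjusted p = 0.291).

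Neither regulator passed in the gastrocnemius. Azin1 had 108, 109, 83.3 and 97.8 CPM in WT and 142, 149.7, 138 and 77.5 CPM in Mtm1-/y replicates 1 to 4, a log2 fold change of 0.36 (SE 0.19, edgeR adjusted p = 0.172). Replicate 4 was below every WT library and the other 3 above every one. Without it the value was 0.55 with an adjusted p of 0.0044 (range over alternatives 0.0044 to 0.338). Oaz1 had 41.4, 40.7, 37.3 and 49.9 CPM in WT and 50.8, 38.6, 39.9 and 43.0 CPM in Mtm1-/y libraries, a log2 fold change of 0.04 (SE 0.11, edgeR adjusted p = 0.81). With libraries scaled by their totals in place of TMM, the median over all genes moved from 0.02 to 0.35, and 4 of the 9 members were called higher and 2 lower.

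**Figure D2:**
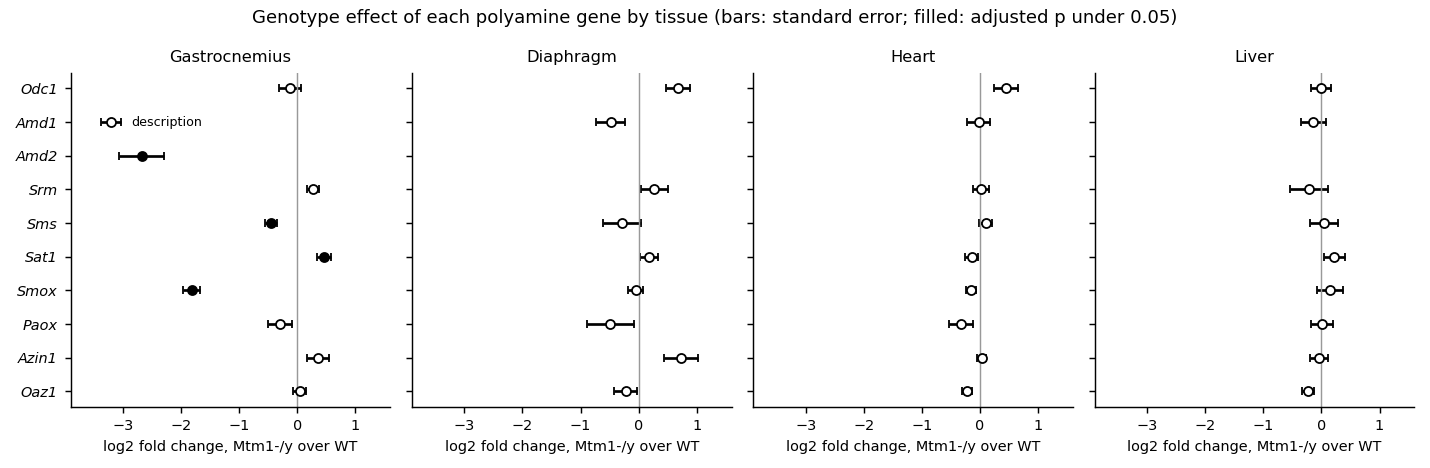
Log2 fold change of Mtm1-/y over WT for the 10 genes in each tissue by edgeR, with bars for the standard error and filled symbols for an adjusted p under 0.05. In the gastrocnemius Amd1 (-3.20, a description), Amd2 (-2.67), Smox (-1.82) and Sms (-0.45) lie below 0 and Sat1 (0.47) above it, and no symbol is filled in the diaphragm, heart or liver.

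Cell-type markers moved in the same muscle, and only those called by edgeR are counted here. Such calls were upward for 14.1% and downward for 14.9% of all genes. Of 6 fast-fibre markers 5 fell and 1 rose, and their summed CPM was 119693 to 149118 in WT and 68512 to 85454 in Mtm1-/y gastrocnemius. Of 6 macrophage markers 5 rose (summed CPM 23.8 to 43.1 in WT, 66.1 to 84.0 in Mtm1-/y), as did 6 of 7 adipocyte markers (220 to 341, 348 to 521) and 7 of 7 genes known to respond to denervation (87.1 to 122, 344 to 592). No marker of the first 4 lists was at 0 in every gastrocnemius library of a genotype. The summed CPM of slow-fibre, cardiomyocyte and hepatocyte markers overlapped between genotypes. Of 5 slow-fibre markers 1 fell, and of 3 cardiomyocyte markers tested 2 rose. Of 7 hepatocyte markers tested 1 rose and 1 fell. The part of any of these lists in the changes of Amd1, Smox, Sms and Sat1 was not tested.

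The change of Smox was tested against that in each other tissue. Its log2 fold change in the gastrocnemius was lower by 1.76 (SE 0.21) than in the diaphragm, by 1.68 than in the heart and by 1.99 than in the liver, with edgeR adjusted p of 0.00445, 5.38e-05 and 0.000897. Smox was the single member of 9 whose effect differed between gastrocnemius and diaphragm (0.280% of all genes) and between gastrocnemius and liver (6.34%). Between gastrocnemius and heart 4 of 9 members differed (19.8% of all genes): Smox, Amd2 with -3.45, Sms with -0.57 (edgeR adjusted p = 0.0242) and Sat1 with 0.59 (edgeR adjusted p = 0.0257). Of these, Amd2 is not independent of Amd1, whose value chose the set, and it passed the filter on low counts through the gastrocnemius. With the replicate number within each tissue as a block the difference of Smox from the diaphragm was -1.78 with an adjusted p of 0.103 (range over alternatives 2.36e-11 to 0.103). This block sets same-numbered WT and Mtm1-/y libraries of a tissue together. Animals shared between tissues were not modelled in these tests. The calls of Sms and Sat1 against the heart were lost under the block and without WT gastrocnemius replicate 2 or Mtm1-/y heart replicate 4, that of Sms also without Mtm1-/y heart replicate 3 and that of Sat1 without WT gastrocnemius replicate 3, with edgeR adjusted p of at most 0.0554 and 0.0542. For Amd1 the same differences were -2.70, -3.19 and -3.09 against diaphragm, heart and liver, as a description. Among the other 3 tissues no member's effect differed (0.00573%, 0% and 0% of all genes) by edgeR, nor by DESeq2 (1.17%, 0.0833% and 1.35%), which gave an adjusted p to 2 members for heart against liver. The 3 comparisons with the gastrocnemius share its libraries.

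In the diaphragm 0 of 9 members tested were called by edgeR (0.0119% of all genes) and 0 of 10 by DESeq2 (2.37%), and 2 of 9 had an unadjusted p under 0.05 (10.8% of all genes). The steep differences of the limb muscle had no counterpart of like size. Smox had 9.94, 13.4, 11.2 and 11.2 CPM in WT and 12.1, 9.78 and 10.6 CPM in Mtm1-/y replicates 1, 2 and 4, a log2 fold change of -0.05 (SE 0.13). Amd1 had 5.52, 10.8, 7.73 and 6.0 CPM in WT and 5.38, 5.86 and 4.63 CPM in Mtm1-/y libraries, with overlapping groups and a log2 fold change of -0.48 (SE 0.25, edgeR adjusted p = 0.557). Amd2 had too few counts to pass the filter on low values, at 2 to 9 per library.

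The 2 members with an unadjusted p under 0.05 in the diaphragm were Odc1 and Azin1. Odc1 had 13.6, 16.2, 14.8 and 13.8 CPM in WT and 27.8, 14.7 and 26.5 CPM in Mtm1-/y replicates 1, 2 and 4, and Azin1 had 84.0, 87.6, 84.4 and 66.1 CPM in WT and 199, 77.5 and 119 CPM in the same Mtm1-/y libraries. In both genes replicates 1 and 4 lay above every WT library and replicate 2 lay among them. The log2 fold changes were 0.68 (SE 0.21, edgeR adjusted p = 0.349) and 0.73 (SE 0.29, edgeR adjusted p = 0.44). Without Mtm1-/y replicate 2 the value for Odc1 was 0.91 with an adjusted p of 0.0396 (range over alternatives 0.0396 to 0.779). For Azin1 it was 0.99 with an adjusted p of 0.113 (0.11 to 0.887), and without replicate 1 it was 0.32. The counts of Odc1 per Oaz1 count in a library, a decarboxylase and the protein that marks it for degradation, were 0.434 to 0.606 in WT diaphragm and 1.17, 0.473 and 1.48 in the Mtm1-/y libraries. The summed CPM of the 7 denervation-responsive genes was 40.3 to 67.1 in WT and 127 to 419 in Mtm1-/y diaphragm, without overlap, and its part in these values was not tested.

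Liver RNA moved with some of these values. Alb had 22780, 15531, 252 and 16557 CPM in WT diaphragm replicates 1 to 4 and 1450, 28308 and 480 CPM in Mtm1-/y replicates 1, 2 and 4. Paox, whose WT level was highest in the liver, had 9.07, 9.13, 4.02 and 7.62 CPM in the same WT libraries and 3.47, 8.39 and 3.86 CPM in the same Mtm1-/y libraries. The 3 libraries low in Alb, WT replicate 3 and Mtm1-/y replicates 1 and 4, were also the 3 low in Paox. Oaz1, higher in WT liver than in WT diaphragm, was lowest in the same 3, at 26.2, 23.8 and 17.9 CPM. In the other diaphragm libraries it had 26.7 to 31.3 CPM. The Odc1 per Oaz1 counts of the diaphragm thus have a denominator that moved with Alb, and the part of liver RNA in them was not tested. Odc1 and Azin1 were high in Mtm1-/y replicates 1 and 4 and not raised in WT replicate 3. Genotype and liver RNA are partly confounded in these few libraries and cannot be told apart. With the mean hepatocyte marker level as a covariate, the log2 fold changes were -0.31 for Paox in place of -0.48, 0.57 for Odc1 and 0.64 for Azin1, none of them called.

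**Figure D3:**
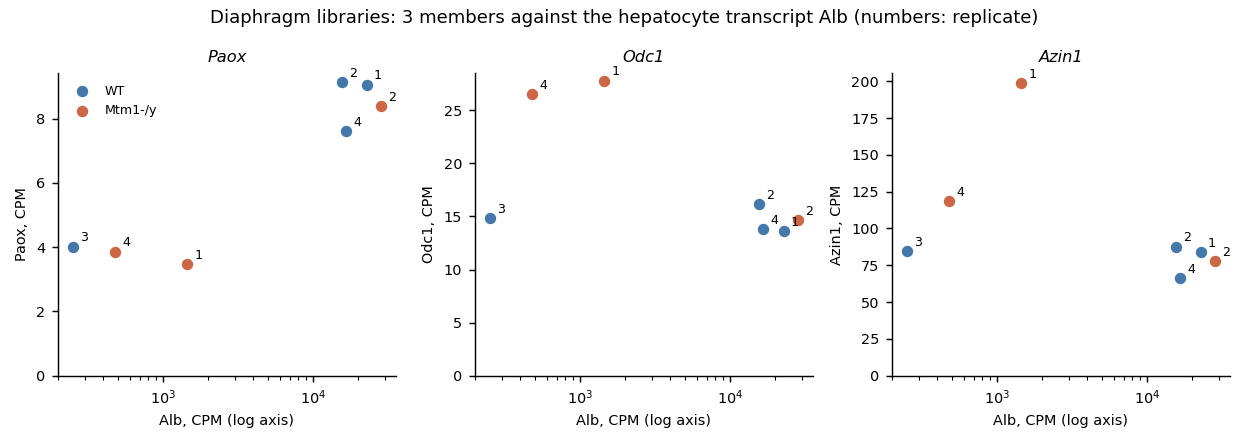
CPM of Paox, Odc1 and Azin1 against CPM of Alb (log axis) in the 7 diaphragm libraries, WT in blue and Mtm1-/y in red. Paox is 3.47 to 4.02 CPM in the 3 libraries with the lowest Alb and 7.62 to 9.13 in the other 4, whereas Odc1 and Azin1 are high in Mtm1-/y replicates 1 and 4 only.

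In the heart 0 of 9 members were called by edgeR (0.00656% of all genes) and 0 of 10 by DESeq2 (0.453%), and 1, Oaz1, had an unadjusted p under 0.05 (8.88% of all genes). Amd1 had 18.6, 15.2, 17.7 and 13.8 CPM in WT and 23.0, 13.3, 13.1 and 15.1 CPM in Mtm1-/y heart, a log2 fold change of -0.03 (SE 0.19). Smox had 24.1, 27.9, 23.1 and 24.4 CPM in WT and 22.5, 20.2, 23.0 and 24.5 CPM in Mtm1-/y heart, a log2 fold change of -0.15 (SE 0.08). Both genes overlapped between genotypes here. Odc1 had 10.2, 12.6, 10.8 and 6.48 CPM in WT and 15.2, 10.7, 12.6 and 16.1 CPM in Mtm1-/y heart, a log2 fold change of 0.44 (SE 0.20) with an unadjusted p of 0.0583 by edgeR's quasi-likelihood test. Oaz1 had 23.7, 25, 26.0 and 28.3 CPM in WT and 20.03, 24.9, 23.2 and 20.6 CPM in Mtm1-/y heart, a log2 fold change of -0.22 (SE 0.09, edgeR adjusted p = 0.546). Amd2 had 6 to 7 counts per WT library and 7 to 12 per Mtm1-/y library, below the filter. Its CPM was 0.161 to 0.221 in WT and 0.236 to 0.367 in Mtm1-/y heart, without overlap, as were its shares of the counts of both Amd genes (0.936 to 1.23% and 1.57 to 2.31%). Of the genes that passed the filter in the heart, a set without Amd2, 2.15% were higher without overlap. DESeq2 gave Amd2 a log2 fold change of 0.79 with an adjusted p of 0.623.

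The liver was alike. No member of 9 was called by edgeR (0% of all genes) or by DESeq2 (0.163%), and again Oaz1 was the 1 member with an unadjusted p under 0.05 (4.24% of all genes). In this organ edgeR did not call the targeted gene Mtm1 either, which limits what the absence of edgeR calls can show. DESeq2 did call Mtm1 here (DESeq2 adjusted p = 1.23e-06). Oaz1 had 41.7, 40.3 and 46.7 CPM in WT and 38.1, 36.8, 37.8 and 34.0 CPM in Mtm1-/y liver. Every Mtm1-/y library was below every WT library, as for 3.33% of all genes, at a log2 fold change of -0.23 (SE 0.10, edgeR adjusted p = 0.969). Srm, highest in this organ, had 45.6, 25.2 and 16.6 CPM in WT and 31.8, 23.1, 28.1 and 18.5 CPM in Mtm1-/y liver, so that its WT libraries spread over a wider range than the Mtm1-/y ones. Paox had 30.5, 24.0 and 25.2 CPM in WT and 17.5 to 33.6 CPM in Mtm1-/y liver. Amd1 had 9.78, 11 and 9.30 CPM in WT and 8.67, 6.06, 11.7 and 10.2 CPM in Mtm1-/y liver, and Smox 2.86, 3.36 and 3.92 CPM against 3.45, 4.86, 3.61 and 3.12 CPM.

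The genes that feed and surround the pathway were read from lists written with earlier results of these data known. Their values under library totals, a scaling that moved the median over all genes in the gastrocnemius from 0.02 to 0.35, are not given. Calls in that muscle with changes near this shift may be lost under it, as that of Sms was. Methionine supply and salvage, which provides S-adenosylmethionine and recovers the by-product of spermidine and spermine synthesis, had 5 of 9 genes lower and 0 higher in Mtm1-/y gastrocnemius by edgeR (14.9% and 14.1% of all genes), with a median log2 fold change of -0.37 against 0.02 over all genes. Mat2a, the S-adenosylmethionine synthetase of tissues other than liver, went from 365 ± 37.8 to 261 ± 19.6 CPM (SD, n = 4 each), a log2 fold change of -0.47 with an edgeR adjusted p of 0.00337. Adi1 and Apip, enzymes of the salvage route, went from 70.8 to 47.0 CPM and from 28 to 19.8 CPM, with log2 fold changes of -0.58 and -0.48 and edgeR adjusted p of 0.00141 and 0.00481. In each of these 3 genes, named for their small p, all Mtm1-/y libraries were below all WT libraries, as for 16.7% of all genes. The other 2 that fell were Enoph1 and Mtap, outside the rule for named genes.

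Among 7 genes tested of arginine and ornithine supply, 2 rose and 1 fell, 3 of 7 against 29.0% of all genes called, with a median of 0.19. Oat, the aminotransferase that consumes or forms ornithine, went from 313 ± 23.2 to 195 ± 14.7 CPM, a log2 fold change of -0.67 (edgeR adjusted p = 0.000425). Asl and Ass1, which together make arginine from citrulline, went from 6.54 to 10.6 CPM and from 1.13 to 2.33 CPM, with log2 fold changes of 0.70 and 1.06 and edgeR adjusted p of 0.000779 and 0.0418. The Ass1 libraries overlapped between genotypes and those of Asl and Oat did not. Of 7 polyamine transporters tested, Atp13a3, a polyamine transporting ATPase, rose from 67.0 ± 3.97 to 106 ± 22.8 CPM (log2 fold change 0.68, edgeR adjusted p = 0.00414) and Slc47a1, an exporter of organic cations, fell from 47.9 ± 9.48 to 29.4 ± 4.31 CPM (log2 fold change -0.69, edgeR adjusted p = 0.00701), with a median of 0.10 over the list.

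The remaining lists gave 0 calls in the gastrocnemius by edgeR and by DESeq2: 2 antizymes and inhibitors tested (Oaz2, -0.11), 2 other catabolic enzymes (Aldh7a1, -0.11) and 4 genes of the hypusination of eIF5A, the modification that consumes spermidine (Eif5a, -0.03). In the diaphragm, heart and liver no gene of the 6 lists was called by edgeR. DESeq2 called 1, Atp13a3 in the diaphragm, with a log2 fold change by edgeR of 0.49 (adjusted p 0.294 by edgeR, 0.0462 by DESeq2).

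**Figure D4:**
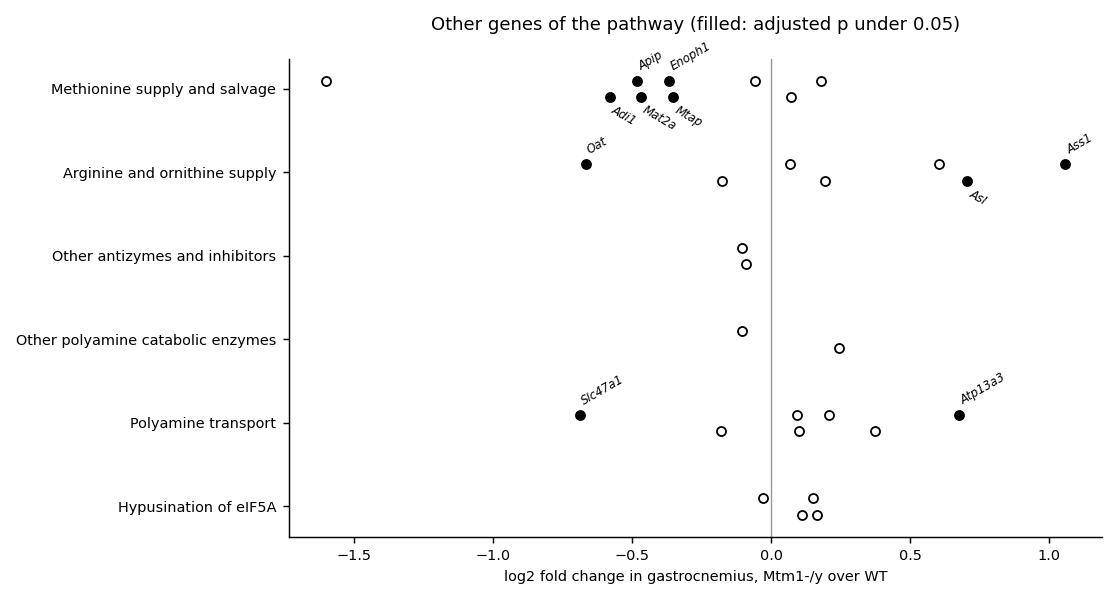
Log2 fold change of Mtm1-/y over WT in the gastrocnemius for each tested gene of the 6 lists around the pathway, filled where the edgeR adjusted p was under 0.05. The 5 filled genes of methionine supply and salvage lie between -0.58 and -0.35, while Asl, Ass1 and Atp13a3 lie above 0 and Oat and Slc47a1 below.

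The genes most like Amd1 and Smox were looked for in the 22 libraries outside the gastrocnemius, so that the value that chose the set was not used by the Pearson correlation of log2 CPM centred on each tissue's mean, over 12610 genes. For Amd1 they were Aqp1 (r = 0.77), Gm6210 (0.77), Cmpk2 (0.71), Tirap (0.69) and Flt1 (0.68). For Smox they were Cln6 (r = 0.78), Prpf39 (0.75), Nrap (0.73), Dgka (0.72) and Ypel5 (0.71), and over the 8 gastrocnemius libraries the same genes gave -0.71, -0.12, 0.14, 0.18 and -0.39. Being the highest of many, these values are a description, over libraries of 3 tissues and both genotypes that differ in depth. Differences between genotypes were not removed by the centring. Gm6210 was near the floor, with group means of 0.508 to 0.951 CPM in these tissues. Nrap was so in the liver, with means of 0.371 CPM in WT and 0.820 in Mtm1-/y.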

How the data were processed

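RNA of 30 libraries (4 tissues, 2 genotypes) was extracted with TRI Reagent and prepared with a poly-A, strand-marking kit. The deposited values are raw counts of reads per gene: the authors used cutadapt 1.10 for trimming, STAR 2.5.3a for alignment to mm10 and, for uniquely aligned reads of a single gene, HTSeq 0.6.1p1 (bcl2fastq 2.17.1.14 is also named in the submitters' processing notes). The strand setting of the counting is not given in the sources used here. All 36103 gene identifiers were matched to GENCODE M21, in which 20 symbols belong to more than 1 gene.

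The 10 members and all gene lists were chosen with earlier results of these data known. All members were named, and of each pathway list up to 3 genes, those with the smallest p among genes called in any tissue, or the most abundant 1 in WT gastrocnemius where none was called. The genes most like Amd1 and Smox were the 5 with the highest correlation outside the gastrocnemius.

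Within each tissue, genes were filtered by edgeR's filterByExpr (count minimum 10), scaled by TMM and tested by edgeR 4.0.16 (quasi-likelihood test, R 4.3.3) with Benjamini-Hochberg adjustment over all genes tested and a threshold of 0.05. A prior count of 2 was used for log2 CPM values only. WT tissues were compared in 1 fit of the WT libraries, and differences between genotype effects were tested as interactions. DESeq2 1.42.0, limma voom 3.58.1, other scalings and filters, the replicate block, a hepatocyte covariate and leaving out each library were alternatives. Scaling by library totals was chosen after seeing the data. The fits were tested on simulated data. Promoter windows are from RefSeq (GRCm38.p6), with 8 of 10 members matched.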

Additional observations from a re-analysis of the deposited data

Results flagged for a closer look

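Among 60 groups of 4 libraries (10 genes by group), 4 had a highest or lowest library far from the other 3 by Dixon's ratio, and chance gives about 1 such group in 20. They were Sms in WT heart replicate 4 (20.7 CPM, low), Azin1 in Mtm1-/y gastrocnemius replicate 4 (77.5 CPM, low), Azin1 in WT diaphragm replicate 4 (66.1 CPM, low) and Azin1 in WT heart replicate 3 (113 CPM, high).

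The genotype effect differed between tissues by the interaction test for 4 members. The log2 fold change of Smox in the gastrocnemius minus that in another tissue was -1.76 for the diaphragm, -1.68 for the heart and -1.99 for the liver. Against the heart, the difference was also past the threshold for Sms (-0.57), Sat1 (0.59) and Amd2 (-3.45), the last not independent of Amd1 because of their shared sequence.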

How the results depend on the processing

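Correlations of the deviations of same-numbered libraries were -0.04 to 0.10 in the gastrocnemius and of both signs in the other tissues (-0.64 to 0.46 in the diaphragm). They gave no uniform sign that replicate numbers pair the libraries, but with so few libraries per group they cannot exclude pairing. With the replicate block, members whose effect differed fell from 1 to 0 for gastrocnemius against diaphragm, where the call of Smox was lost, and from 4 to 2 for gastrocnemius against heart, where those of Sms and Sat1 were lost, and the values for liver changed sign for Odc1 (0.057), Srm (0.030), Sms (-0.017) and Paox (-0.12). With an absolute log2 fold change over 1 also required, 2 of the 4 members called in the gastrocnemius were left, Smox and Amd2, and between WT tissues 5 for gastrocnemius and diaphragm, 3 for diaphragm and heart, 4 for diaphragm and liver and 4 for heart and liver. DESeq2 gave 2 members in place of 1 for gastrocnemius against liver, the added 1 being Amd2.

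Without single libraries, the count of members ranged from 0 to 1 in the diaphragm (1, Odc1, without Mtm1-/y replicate 2), from 2 to 5 for gastrocnemius against heart (2 without WT gastrocnemius replicate 2 or Mtm1-/y heart replicate 4), from 1 to 3 for gastrocnemius against liver (3 without Mtm1-/y liver replicate 1, 2 without WT gastrocnemius replicate 4) and from 0 to 1 for diaphragm against heart (1 without Mtm1-/y diaphragm replicate 2). Log2 fold changes that changed sign, none of them called, ranged from -0.23 to 0.033 for Odc1 and from -0.045 to 0.12 for Oaz1 in the gastrocnemius, and from -0.13 to 0.035 for Smox in the diaphragm. In the heart the ranges were -0.25 to 0.064 for Amd1, -0.082 to 0.084 for Srm and -0.011 to 0.069 for Azin1, and in the liver -0.27 to 0.014 for Amd1, -0.13 to 0.068 for Odc1, -0.49 to 0.28 for Srm, -0.032 to 0.19 for Sms, -0.098 to 0.15 for Paox and -0.15 to 0.093 for Azin1.

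Library totals, chosen after seeing the data, turned Odc1 (0.22) and Paox (0.039) in the gastrocnemius, Srm (-0.042) and Azin1 (-0.025) in the heart and Paox (-0.037) in the liver. In the gastrocnemius the TMM factors were higher in Mtm1-/y by 0.3373 on the log2 scale, and totals added calls for Srm (0.61), Azin1 (0.70) and Oaz1 (0.38). Under limma voom, Sms (0.025) and Smox (0.016) in the diaphragm and Odc1 (0.026) and Sms (-0.013) in the liver changed sign, as did Odc1 in the liver under DESeq2 (0.00016) and in 1 fit of all libraries (0.0025). The cause was not tested. Smox, Sat1 and Amd2 in the gastrocnemius kept an adjusted p under 0.05 and their direction under all alternatives run, where Amd2 is not independent of Amd1.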
